A study of Mus musculus with 43 samples.

Results

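Acute phase proteins are plasma proteins whose output changes during inflammation, and 10 of their genes were followed here in mouse lung, out of 24475 genes in the deposited table. The genes were chosen by name, with earlier results of these data known: serum amyloid A (Saa1, Saa2, Saa3), alpha-1-acid glycoprotein (Orm1), haptoglobin (Hp), ceruloplasmin (Cp), the 3 chains of fibrinogen (Fga, Fgb, Fgg) and the vitamin D binding protein (Gc). All 10 were in the table, and 9 of them had enough counts to be tested. Fgb did not. The RNA came from whole lung of female mice, listed as 8 to 12 weeks old, on a hybrid 129S6/C57BL/6 background. For the antibody study, per the series' design text, these mice carried human sequences for IL-33, for IL-4 and for the ectodomain of IL-4Rα, and the labels do not say whether mice without antibody carried the same exchange. House dust mite extract (HDM), an allergen mixture, was given intranasally 3 times a week. The study asked how blocking IL-33 and IL-4Rα alters lung inflammation that HDM has set up.

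The labels put the 43 libraries into 7 groups. There were 5 mice given saline, 6 given HDM for 11 weeks and 7 given HDM for 19 weeks, none of them with an antibody. The other 25 mice also had 19 weeks of HDM. Of these, 5 received itepekimab (anti-IL-33) together with dupilumab (anti-IL-4Rα), 6 received itepekimab with isotype antibody, 7 received dupilumab with isotype antibody, and 7 received isotype control antibody alone. The labels do not say when antibody dosing began or how long saline was given, and the design text lists HDM periods of 4, 15 and 19 weeks where the labels have 11 and 19. The labels also do not say whether mice shared a cage, litter or day, so p-values measure the spread between these samples. The listed age is below 19 weeks, so it cannot be the age at collection of mice given HDM that long. Age at collection is not given, and its part in differences between saline and the HDM times, or between those times, was not tested.

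In the liver, IL-6 acting through STAT3, and IL-1 acting through C/EBP factors and NF-kB, switch on acute phase genes within hours. Serum amyloid A proteins travel on high-density lipoprotein and bind formyl peptide receptors. Saa3 is made largely outside the liver in mice, by epithelium and macrophages. Haptoglobin and ceruloplasmin handle hemoglobin and copper, and alpha-1-acid glycoprotein binds small lipophilic molecules. Fibrinogen is a hexamer holding a pair of each of its Aα (Fga), Bβ (Fgb) and γ (Fgg) chains, and is cut by thrombin into fibrin. The vitamin D binding protein carries vitamin D metabolites and scavenges actin.

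The fibrinogen genes lie together on mouse chromosome 3 (build GRCm38.p6), with Fgg at chr3:83007724-83015056 and Fga at chr3:83026153-83033627, both on the plus strand, and Fgb at chr3:83042246-83049863 on the minus strand. Only 11096 bases separate Fgg from Fga, and 8618 bases separate Fga from Fgb. The amyloid genes lie together on chromosome 7, with Saa3 at chr7:46711998-46719615 and Saa1 at chr7:46740497-46743181, both on the minus strand, and Saa2 at chr7:46751833-46754313 on the plus strand. Saa1 and Saa2 point away from each other across 8651 bases. Of the others, Orm1 lies at chr4:63344556-63348163 (plus), Hp at chr8:109575128-109579172 (minus), Cp at chr3:19956933-20009750 (plus) and Gc at chr5:89417511-89457898 (minus).

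The promoter windows of both gene clusters are shown because the amyloid genes, and Fga and Fgg, rose together with HDM, while Fgb was barely detected. Each is 300 bases long, 5′ to 3′ on the gene's own strand, from RefSeq on GRCm38.p6. Capitals mark matches to a STAT site (TTCNNNGAA) or a C/EBP site (TTNNGNAAT, found here on the opposite strand).
Fga, chr3:83025903-83026202, plus strand: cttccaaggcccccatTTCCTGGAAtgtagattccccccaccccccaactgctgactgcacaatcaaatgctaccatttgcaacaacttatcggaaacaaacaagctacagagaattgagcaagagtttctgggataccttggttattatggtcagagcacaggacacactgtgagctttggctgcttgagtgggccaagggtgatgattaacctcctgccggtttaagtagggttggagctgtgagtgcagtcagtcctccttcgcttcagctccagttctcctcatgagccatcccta
Fgb, chr3:83049814-83050113, minus strand: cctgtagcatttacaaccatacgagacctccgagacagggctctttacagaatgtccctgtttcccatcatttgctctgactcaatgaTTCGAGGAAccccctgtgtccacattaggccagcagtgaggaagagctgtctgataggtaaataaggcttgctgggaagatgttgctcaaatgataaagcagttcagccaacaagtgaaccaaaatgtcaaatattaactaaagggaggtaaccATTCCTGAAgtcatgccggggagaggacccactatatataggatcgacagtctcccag
Fgg, chr3:83007474-83007773, plus strand: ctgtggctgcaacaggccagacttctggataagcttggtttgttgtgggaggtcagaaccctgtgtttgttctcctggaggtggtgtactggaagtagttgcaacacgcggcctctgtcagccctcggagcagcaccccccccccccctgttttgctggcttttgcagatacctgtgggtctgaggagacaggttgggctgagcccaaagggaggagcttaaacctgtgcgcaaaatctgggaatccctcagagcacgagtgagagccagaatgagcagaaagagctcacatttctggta
Saa1, chr7:46742931-46743230, minus strand: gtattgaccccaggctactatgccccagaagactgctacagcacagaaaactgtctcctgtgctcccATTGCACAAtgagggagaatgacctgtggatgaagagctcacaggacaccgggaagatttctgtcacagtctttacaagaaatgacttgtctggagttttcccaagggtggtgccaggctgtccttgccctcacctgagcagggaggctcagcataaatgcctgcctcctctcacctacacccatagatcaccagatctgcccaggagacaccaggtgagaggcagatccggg
Saa2, chr7:46751583-46751882, plus strand: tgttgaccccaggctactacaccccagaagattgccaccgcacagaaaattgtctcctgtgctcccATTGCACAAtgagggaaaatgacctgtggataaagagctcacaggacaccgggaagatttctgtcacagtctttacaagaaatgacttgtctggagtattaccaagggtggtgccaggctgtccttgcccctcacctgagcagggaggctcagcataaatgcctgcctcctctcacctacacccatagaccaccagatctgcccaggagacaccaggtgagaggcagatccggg
Saa3, chr7:46715627-46715926, minus strand: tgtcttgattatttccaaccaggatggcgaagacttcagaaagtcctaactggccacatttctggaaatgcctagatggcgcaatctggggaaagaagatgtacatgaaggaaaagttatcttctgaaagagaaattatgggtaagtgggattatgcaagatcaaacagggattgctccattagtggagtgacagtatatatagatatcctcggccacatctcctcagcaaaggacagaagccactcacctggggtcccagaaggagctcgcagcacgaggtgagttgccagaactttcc

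The Saa1 and Saa2 windows were 95.35% identical when aligned end to end, and each held the C/EBP match ATTGCACAA, starting 183 bases upstream of the start site in Saa1 and 184 in Saa2. The Saa3 window had 50.93% identity to that of Saa1 and held neither motif. It lies inside the span given above for the Saa3 gene and not at that span's 5′ end. The 3 fibrinogen windows were unlike each other, with 45.85% identity between Fga and Fgg and 45.54% between Fga and Fgb. The Fga window held the STAT match TTCCTGGAA, 234 bases upstream. The Fgb window held the STAT match TTCGAGGAA, 162 bases upstream, and the C/EBP match ATTCCTGAA, 8 bases upstream, while the Fgg window held neither motif. On both strands, the STAT letters occurred in 8.298% of 32851 mouse promoter windows of this length and the C/EBP letters in 11.458%. The NF-kB motif, in 1.629% of all windows, and the HNF1 motif, in 0.009%, had no match in the 9 windows available for these genes. A match in letters is a description of the sequence and does not show that a factor bound there.

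Library totals ran between 11932579 and 26749395 counts, and 3 counts is taken as the floor of what a library can show. Levels are CPM (counts per 1000000 counts of a TMM-scaled library), and log2 fold changes, standard errors and Benjamini-Hochberg adjusted p-values come from a quasi-likelihood test in edgeR on 15979 genes, with 0.05 as the threshold. Libraries differed in how level depended on GC content: the GC slope, the log2 change per 10 percentage points of transcript GC, averaged -0.59 in saline lungs, -0.36 and 0.16 at 11 and 19 weeks of HDM, 0.32 with both antibodies, 0.26 in the anti-IL-33 group, 0.25 in the anti-IL-4Rα group and -0.13 in isotype lungs. In 9 libraries the slope exceeded 0.75 (3 under both antibodies, 2 under anti-IL-33, 3 under anti-IL-4Rα and 1 at 19 weeks of HDM), and results that move with these are given also without them. In the anti-IL-33 group, replicate 4 had a summed neutrophil marker level of 1821 CPM, against 143 to 327 CPM in the other 5 mice, and stood highest of its group for all 9 measured acute phase genes other than Cp. In the anti-IL-4Rα group, replicate 2 had 185290 CPM of red cell genes. Since whole lung was sequenced, fewer cells of a type and less RNA per cell cannot be told apart in any result.

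Fibrinogen transcripts of the Aα and γ chains were scarce in saline lungs and rose with HDM. Fga had 1.82, 0.441, 0.3455, 0.700 and 0.495 CPM in the 5 saline lungs. With 11 weeks of HDM its lowest, median and highest values were 3.31, 6.29 and 7.90 CPM, and with 19 weeks they were 12.8, 22.4 and 47.9 CPM. The 3 groups did not overlap at any point, and every HDM lung lay above every saline lung. Fga rose 7.80-fold at 11 weeks (log2 fold change 2.96 ± 0.55 SE, adjusted p = 0.000119) and 36.1-fold at 19 weeks (5.17 ± 0.59, adjusted p = 1.74e-08), both against saline. These comparisons share the saline libraries.

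Fgg, the γ chain gene, had 4.13, 1.38, 0.7255, 1.75 and 1.49 CPM in saline lungs. Its lowest, median and highest values were 3.31, 6.975 and 10.3 CPM at 11 weeks of HDM and 5.13, 23.6 and 46.6 CPM at 19 weeks. Saline and 19-week lungs did not overlap, while the highest saline lung, replicate 1, lay inside the 11-week range. Fgg rose 3.64-fold at 11 weeks (log2 fold change 1.86 ± 0.53 SE, adjusted p = 0.0124) and 12.7-fold at 19 weeks (3.67 ± 0.56, adjusted p = 4.16e-06) relative to saline lungs.

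Fgb, the Bβ chain gene that lies next to Fga, was at or near zero throughout. It had 4 counts in all 43 libraries, 1 in each of 4 lungs, all of them exposed to HDM for 19 weeks. A limit of 3 counts per library corresponds to between 0.0989 and 0.400 CPM, so Fgb was not detectable above that level in any group, while Fga and Fgg averaged 27.3 ± 13.5 and 24.0 ± 14.3 CPM (SD, n = 7) at 19 weeks. None of the 33-base windows of Fgb, the read length used, occurred in another gene's transcripts.

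Between 11 and 19 weeks of HDM, Fga rose 4.63-fold (log2 fold change 2.21 ± 0.46, adjusted p = 0.0328). That call is near the threshold: it was lost when any 1 of the 6 lungs at 11 weeks, or any of replicates 5, 6, 7 and 8 at 19 weeks, was left out, with log2 fold changes of 2.08 to 2.31 and adjusted p-values of 0.0542 to 0.104. Fgg averaged 24.0 ± 14.3 CPM at 19 weeks (n = 7) and 6.87 ± 2.75 CPM at 11 weeks (SD, n = 6), a difference that missed the threshold in edgeR (1.81 ± 0.48, adjusted p = 0.133). DESeq2 and limma voom each called Fgg in this comparison.

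The ratio of Fga to Fgg counts within a lung also varied between groups, and was not tested. It averaged 0.394 ± 0.0675 in saline lungs, 0.895 ± 0.111 after 11 weeks of HDM and 1.33 ± 0.540 after 19 weeks. The saline ratios, from 0.320 to 0.476, lay below every HDM ratio without antibody, the lowest of which was 0.770. With both antibodies the ratio was 0.676 ± 0.131 (n = 5), against 1.18 ± 0.361 with isotype antibody (n = 7). The ratios of these antibody groups overlapped slightly, with 0.869 the highest under both antibodies and 0.810 the lowest under isotype antibody. Over the 43 lungs the log ratio had a correlation of 0.087 with the GC slope.

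**Figure D1:**
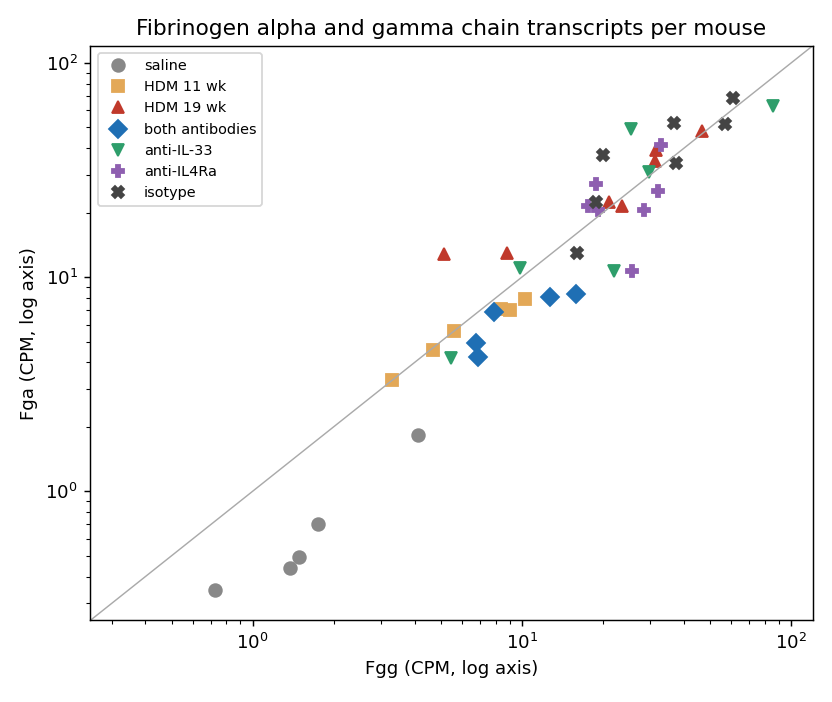
Fga against Fgg in each of the 43 lungs, both in CPM on log axes, with one symbol per mouse and a colour and shape for each group. Saline lungs sit at the low end, and the 5 lungs given both antibodies, at 4.25 to 8.35 CPM of Fga, lie below the isotype lungs, with 3 of them inside the 11-week range of both genes and 2 (replicates 1 and 8) above it.

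The serum amyloid A genes rose with HDM at both times. Saa3 had 5.66, 1.82, 12.9, 3.89 and 1.06 CPM in saline lungs. At 11 weeks of HDM its lowest, median and highest values were 185, 283 and 427 CPM, and at 19 weeks 210.0, 279.9 and 614 CPM. No HDM lung came near a saline lung, and the HDM ranges overlapped, with 3 of the 7 lungs at 19 weeks above every 11-week lung. Saa3 rose 55.2-fold at 11 weeks (log2 fold change 5.79 ± 0.80 SE, adjusted p = 1.03e-06) and 72.4-fold at 19 weeks (6.18 ± 0.81, adjusted p = 2.41e-07) relative to saline. Without saline replicate 3, the highest of the saline lungs, these log2 fold changes were 6.49 and 6.87.

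Saa1 had 0.144, 0.110, 0.0691, 0.117 and 0.066 CPM in saline lungs, a total of 13.2 estimated counts. Its lowest, median and highest values were 0.234, 0.654 and 1.08 CPM at 11 weeks and 0.225, 0.762 and 1.91 CPM at 19 weeks. Every HDM lung exceeded every saline lung, and the groups given HDM overlapped. Saa1 rose 6.51-fold at 11 weeks (log2 fold change 2.70 ± 0.78, adjusted p = 0.0129) and 7.95-fold at 19 weeks (2.99 ± 0.76, adjusted p = 0.00251) relative to saline.

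Saa2 had no count in any saline lung. At 11 weeks of HDM it had 0, 0.205 and 0.540 CPM as lowest, median and highest values, and at 19 weeks 0.104, 0.231 and 0.593 CPM. Against a floor of 3 counts over the saline group, Saa2 was at least 10.6-fold higher at 11 weeks (adjusted p = 0.00115) and at least 12.96-fold higher at 19 weeks (adjusted p = 0.000301). Saa1 and Saa2 shared sequence, with 27.7% of the 33-base windows of Saa1 and 20.0% of those of Saa2 found in another gene's transcripts, so the split of counts between them is uncertain. Their sum averaged 0.101 CPM in saline lungs, 0.923 at 11 weeks and 1.09 at 19 weeks.

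Between the HDM times none of the amyloid genes passed the test. At 19 weeks relative to 11 weeks the log2 fold changes were 0.29 ± 0.59 for Saa1 (adjusted p = 0.803), 0.20 ± 0.63 for Saa2 (adjusted p = 0.874) and 0.39 ± 0.58 for Saa3 (adjusted p = 0.716). Saa3 was far above its relatives in every group. Per kilobase of transcript it averaged 664 CPM at 19 weeks, against 1.33 for Saa1 and 0.435 for Saa2.

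Orm1 rose at 19 weeks and did not pass at 11 weeks in edgeR with all libraries. It had 1.34, 0.386, 8.67, 1.05 and 1.39 CPM in saline lungs, where replicate 3 stood apart. That lung also had 11922 CPM of squamous epithelium markers, against 3.69 to 6.24 CPM in the other 4 saline lungs. Orm1's lowest, median and highest values were 2.40, 8.19 and 9.67 CPM at 11 weeks and 13.7, 19.2 and 34.0 CPM at 19 weeks. The 11-week range took in the high saline lung, and the 19-week lungs lay above all of the others. Orm1 rose 8.48-fold at 19 weeks relative to saline (log2 fold change 3.08 ± 0.62, adjusted p = 0.000188), and without saline replicate 3 this was 4.37. At 11 weeks the difference from saline was 1.46 ± 0.59 (adjusted p = 0.092), and between 19 and 11 weeks it was 1.63 ± 0.54 (adjusted p = 0.22). For 11 weeks relative to saline, limma voom called Orm1, as did the fit without the steep libraries, while DESeq2 did not. Of its 33-base windows 26.8% were shared with Orm2, so reads may be split between these copies. Orm2 rose too at 19 weeks relative to saline, by 4.20 on the log2 scale (adjusted p = 0.000287).

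Gc, a liver-derived carrier in textbook accounts, was low but rose at 19 weeks. It had 0.336, 0.165, 0.380, 0.5055 and 0.495 CPM in saline lungs, 49 counts in all. Its lowest, median and highest values were 0.701, 0.886 and 1.23 CPM at 11 weeks and 2.29, 4.70 and 20.5 CPM at 19 weeks. The ranges of the 3 groups did not overlap, although replicate 6 at 19 weeks was far above its group. Gc rose 17.5-fold at 19 weeks relative to saline (log2 fold change 4.13 ± 0.58, adjusted p = 8.69e-07) and 7.38-fold relative to 11 weeks (2.88 ± 0.50, adjusted p = 0.01). Without that replicate 6 these log2 fold changes were 3.51 and 2.29. The rise between 11 and 19 weeks lost its call without 11-week replicate 1 (2.82, adjusted p = 0.0512) or replicate 8 (2.82, adjusted p = 0.072). At 11 weeks the difference from saline did not pass (1.24 ± 0.56, adjusted p = 0.136).

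Hp and Cp were already abundant in saline lungs and passed the test at neither HDM time. Hp had 682, 580.2, 597, 563 and 501 CPM in saline lungs, and 309, 453 and 665 CPM as lowest, median and highest values at 11 weeks. At 19 weeks those values were 586, 702 and 979 CPM. The 3 ranges overlapped, with log2 fold changes relative to saline of -0.35 ± 0.32 at 11 weeks (adjusted p = 0.56) and 0.33 ± 0.32 at 19 weeks (adjusted p = 0.419).

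Cp, the copper-carrying ferroxidase, had 368, 291, 237, 321 and 232 CPM in saline lungs. It had 327, 454 and 521 CPM as lowest, median and highest values at 11 weeks and 197, 347 and 434 CPM at 19 weeks. Its ranges overlapped too, with log2 fold changes relative to saline of 0.57 ± 0.26 at 11 weeks (adjusted p = 0.15) and 0.10 ± 0.25 at 19 weeks (adjusted p = 0.763). With the GC slope as a covariate Hp was lower (-0.56, adjusted p = 0.036) and Cp higher (0.69, adjusted p = 0.0135) at 11 weeks, and limma voom called both in the same directions.

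Compared per kilobase of the principal transcript, the levels in saline lungs were ordered Hp (435 CPM per kilobase), Cp (72.0), Saa3 (9.13), Orm1 (3.31), Fgg (1.12), Fga (0.294), Gc (0.209) and Saa1 (0.166). At 19 weeks of HDM Saa3 (664) stood above Hp (545), followed by Cp (77.4), Orm1 (28.5), Fgg (14.2), Fga (10.6), Gc (3.77) and Saa1 (1.33). In these lungs Saa3 and Hp were the most abundant of the 10 transcripts per kilobase.

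**Figure D2:**
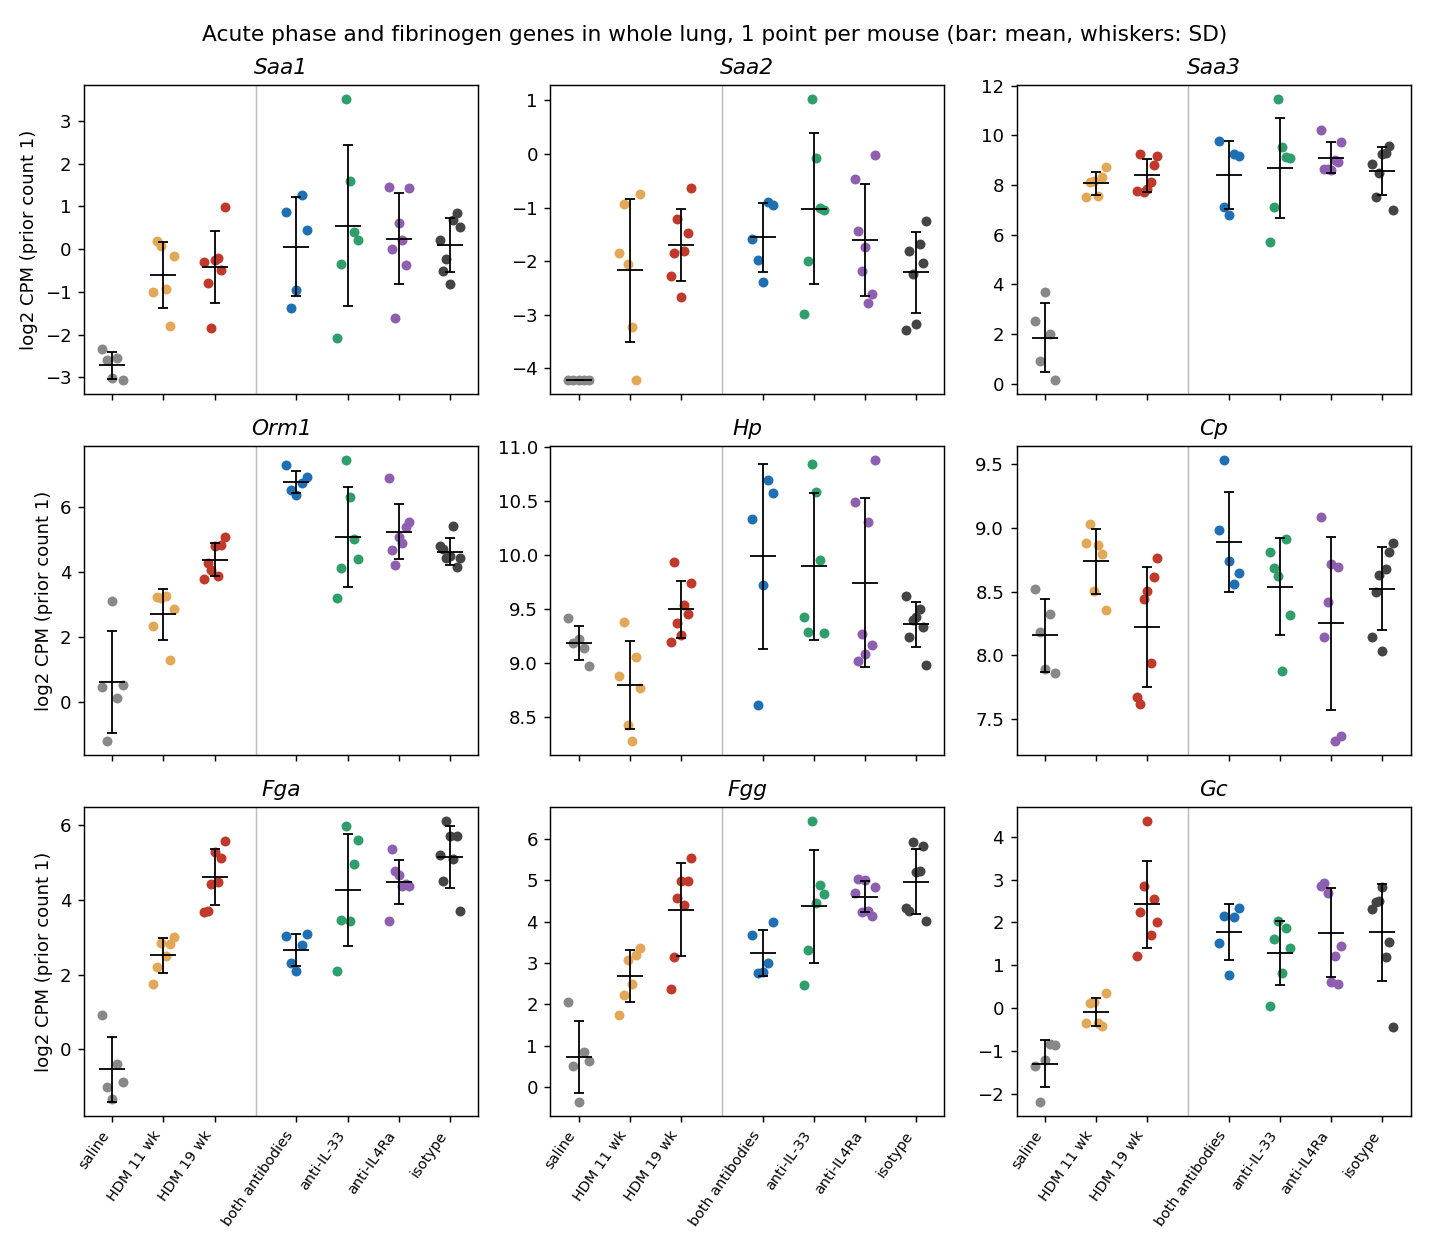
Level of 9 acute phase genes in each lung, as log2 CPM with a prior count of 1, with one point per mouse and a bar at each group's mean. Saa3 and Fga separate all HDM lungs from saline lungs, Orm1 is highest with both antibodies, and Hp and Cp overlap between groups.

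Of the 9 genes tested, 5 rose at 11 weeks of HDM relative to saline (Saa1, Saa2, Saa3, Fga and Fgg) and none fell, where 8.65% of all genes tested were higher and 6.74% lower. At 19 weeks 7 rose (the same 5 with Orm1 and Gc), and none fell, where 19.2% of all genes were higher and 15.6% lower. Between 19 and 11 weeks 2 rose (Fga and Gc), and none fell, where 0.0876% of all genes were higher and 0.0188% lower. In mice given isotype antibody with 19 weeks of HDM, 7 rose relative to saline, and none fell, where 25.3% of all genes were called in either direction. Isotype lungs relative to 19-week lungs without antibody gave no call among the 9 genes in edgeR, with 0 at an unadjusted p under 0.05 and 0 in DESeq2 and in limma voom, and 0% of all genes were called.

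Ranges of single lungs were compared as well. Of the 9 genes, 4 did not overlap between saline and 11 weeks of HDM, 7 between saline and 19 weeks, 3 between the HDM times, and 7 between saline and isotype lungs. The share of all genes whose ranges did not overlap is not given, here or below, so such counts are descriptions only. Leaving out the 9 libraries with a steep GC slope, 7 genes rose at 11 weeks, with Orm1 (1.42, adjusted p = 0.0246) and Cp (0.56, adjusted p = 0.0276) joining the 5, and 7 rose at 19 weeks, in each case relative to saline. The share of all genes called in that setting is not given, so the added calls are not read as particular to these genes.

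In the isotype lungs the saline comparison gave log2 fold changes of 5.72 for Fga (adjusted p = 2.89e-09), 4.22 for Fgg (adjusted p = 6e-07), 3.41 for Gc (adjusted p = 1.42e-05) and 3.30 for Orm1 (adjusted p = 9.56e-05). Among the amyloid genes Saa3 was higher by 6.46 (adjusted p = 1.4e-07) and Saa1 by 3.40 (adjusted p = 0.000785), and Saa2 was at least 7.98-fold higher (adjusted p = 0.00159). Hp (0.18, adjusted p = 0.714) and Cp (0.37, adjusted p = 0.298) did not pass in edgeR, while limma voom and the fit with the GC slope as a covariate each called Cp. Without saline replicate 3, Saa3 was higher by 7.16 and Orm1 by 4.59.

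With IL-33 and IL-4Rα blocked together, 2 fibrinogen chains fell and Orm1 rose, relative to isotype antibody. Of the 9 genes, 1 rose and 2 fell, where 12.6% of all genes tested were higher and 6.32% lower. The number that rose, 1 of 9, was near the share of all genes. Those 3 genes were also the ones whose ranges did not overlap. The comparisons of each antibody treatment with isotype antibody share the same 7 isotype libraries.

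Fga had 8.11, 4.93, 4.25, 6.86 and 8.35 CPM in the 5 lungs given both antibodies. In the 7 isotype lungs its lowest, median and highest values were 12.98, 37.0 and 68.6 CPM. All 5 treated lungs lay below all 7 isotype lungs. Fga fell 6.16-fold (log2 fold change -2.62 ± 0.51, adjusted p = 0.00455). Without the steep libraries, which leaves 2 lungs with both antibodies, it fell by 3.11 on the log2 scale (adjusted p = 0.0191).

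Fgg had 12.8, 6.73, 6.86, 7.89 and 15.9 CPM with both antibodies, and 16.0, 36.8 and 60.9 CPM as lowest, median and highest values with isotype antibody. The groups did not overlap, though the highest treated lung and the lowest isotype lung were almost level. Fgg fell 3.52-fold (log2 fold change -1.81 ± 0.51, adjusted p = 0.0211). The call was lost without replicate 1 of the combination (-1.92, adjusted p = 0.0673) and without the steep libraries (-2.36, adjusted p = 0.0577).

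Orm1 had 155, 92.6, 83.2, 106 and 121 CPM with both antibodies. With isotype antibody its lowest, median and highest values were 17.8, 22.5 and 42.8 CPM. Every lung given both antibodies was above every isotype lung. Orm1 rose 4.35-fold (log2 fold change 2.12 ± 0.54, adjusted p = 0.0146), and the call was lost without replicate 1 of the combination (1.97, adjusted p = 0.0613) or without the steep libraries (1.78, adjusted p = 0.0587). Its copies moved the same way: Orm2 averaged 45.7 ± 8.77 CPM with both antibodies (n = 5) and 4.92 ± 4.69 CPM with isotype antibody (SD, n = 7), a log2 fold change of 3.21 (adjusted p = 0.00555), and Orm3 was higher by 2.38 (adjusted p = 0.0144).

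The amyloid genes and Gc did not pass with both antibodies, with log2 fold changes of 0.16 ± 0.61 for Saa1 (adjusted p = 0.855), 0.69 ± 0.69 for Saa2 (adjusted p = 0.442), 0.04 ± 0.60 for Saa3 (adjusted p = 0.964) and -0.18 ± 0.48 for Gc (adjusted p = 0.783). The treated lungs were spread widely for Saa3, with 871, 138, 110.0, 612 and 571 CPM, against 129, 465 and 772 CPM as lowest, median and highest values with isotype antibody. The 3 high lungs, replicates 1, 5 and 8, were the ones with GC slopes of 0.97, 0.82 and 0.92, and the 2 low ones had slopes of -0.94 and -0.14. Among the treated lungs, Orm1, Fga and Fgg were also highest in replicates 1, 5 and 8. Without the steep libraries the Saa3 difference was -1.84 (adjusted p = 0.146). The part of the GC slope in these values was not tested.

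Hp showed the same split, with 1289, 390.3, 843, 1663 and 1527 CPM with both antibodies, and 504, 676 and 786 CPM as lowest, median and highest values with isotype antibody. The 3 highest were again replicates 1, 5 and 8, and the lowest treated lung lay under every isotype lung. Its log2 fold change was 0.79 ± 0.31 (adjusted p = 0.0623), and -0.08 without the steep libraries. DESeq2 (0.84, adjusted p = 0.0365) and limma voom (1.10, adjusted p = 0.000949) called Hp higher. Cp had 507, 738, 427, 376 and 401 CPM with both antibodies, and 262, 395 and 470 CPM as lowest, median and highest values with isotype antibody. Those ranges overlapped (0.38 ± 0.25, adjusted p = 0.24).

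Each antibody alone gave no call among the 9 genes in edgeR relative to isotype antibody, and 0% of all genes were called in either comparison. With anti-IL-33 and isotype antibody, 4 of the genes had an unadjusted p under 0.05 (Saa1, Saa2, Orm1 and Hp, all with positive fold changes), 0 passed in DESeq2, and 2 passed in limma voom (Fga and Fgg, both lower). With anti-IL-4Rα and isotype antibody, 0 genes had an unadjusted p under 0.05, and DESeq2 and voom called 0 each.

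Fga had 4.20, 21.0 and 63.2 CPM as lowest, median and highest values with anti-IL-33, and 10.7, 21.5 and 41.4 CPM with anti-IL-4Rα, while isotype lungs ran from 12.98 to 68.6 CPM. Both ranges overlapped the isotype range, with 3 of the 6 anti-IL-33 lungs below every isotype lung. The log2 fold change relative to isotype antibody was -0.51 with anti-IL-33 (95% interval -1.39 to 0.37, adjusted p = 0.457) and -0.74 with anti-IL-4Rα (-1.59 to 0.10, adjusted p = 0.418). For Fgg it was -0.25 with anti-IL-33 (-1.17 to 0.67, adjusted p = 0.717) and -0.50 with anti-IL-4Rα (-1.38 to 0.39, adjusted p = 0.613). In voom, which gives less weight to libraries that stand apart, the anti-IL-33 values were -1.51 for Fga (adjusted p = 0.0121) and -1.39 for Fgg (adjusted p = 0.0219).

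Orm1 had 9.10, 26.8 and 174 CPM as lowest, median and highest values with anti-IL-33, and 18.5, 34.0 and 118 CPM with anti-IL-4Rα, against 17.8, 22.5 and 42.8 CPM with isotype antibody. The high values belonged to replicate 4 and replicate 2, the libraries rich in neutrophil and in red cell genes named above, and their part in these values was not tested. The log2 fold changes were 1.10 (adjusted p = 0.269) and 0.80 (adjusted p = 0.469). For Saa3, anti-IL-33 lungs had 52.1, 552 and 2835 CPM and anti-IL-4Rα lungs 387, 486 and 1177 CPM as lowest, median and highest values, again overlapping the isotype lungs.

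Whether both antibodies differed from each alone was tested directly. Relative to anti-IL-33, none of the 9 genes passed in edgeR, where 0.0438% of all genes were called. There 2 had an unadjusted p under 0.05 (Fga and Fgg), DESeq2 called 1 (Fga), and voom called 2 others (Hp and Orm1) and not Fga. Relative to anti-IL-4Rα, none passed either, where 0.119% of all genes were called. There 4 had an unadjusted p under 0.05 (Orm1, Cp, Fga and Fgg), DESeq2 called 1 (Fga), and voom called 3 (Fga, Hp and Orm1). The gene nearest to passing in edgeR was Fga, with a log2 difference of -2.11 ± 0.50 relative to anti-IL-33 (adjusted p = 0.163, and 0.00963 in DESeq2) and of -1.88 ± 0.49 relative to anti-IL-4Rα (adjusted p = 0.113, and 0.0159 in DESeq2). Every lung given both antibodies had less Fga, and less Fgg, than every lung given anti-IL-4Rα. The test of whether the combined change differed from the sum of the single ones gave no call in edgeR (adjusted p = 0.995 for all 9 genes, and 0% of all genes called). In it 2 genes had an unadjusted p under 0.05 (Saa2 and Fga), DESeq2 called 0, and voom called 2 (Hp and Orm1).

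**Figure D3:**
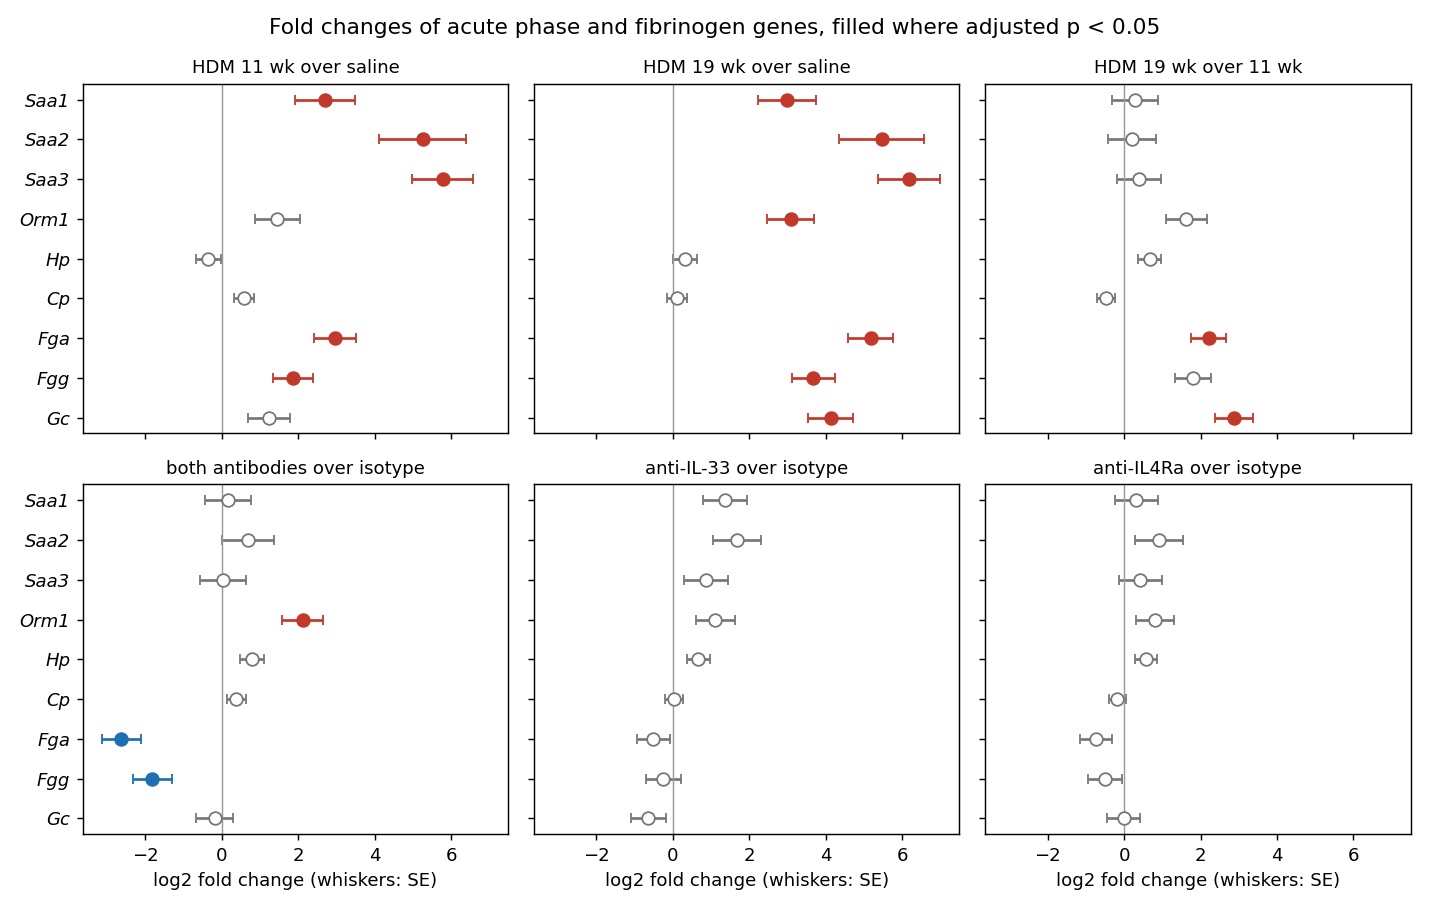
Log2 fold change of 9 acute phase genes with its standard error in 6 comparisons, with filled points where the adjusted p was under 0.05. Fga is 5.17 higher at 19 weeks of HDM relative to saline, and 2.62 lower with both antibodies relative to isotype antibody, while Saa3 is 6.18 higher and 0.04 higher in those comparisons.

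Placed in order of mean log2 level, the 7 groups ran saline, 11-week HDM, both antibodies, anti-IL-33, anti-IL-4Rα, 19-week HDM and isotype for Fga, and only saline and 11-week lungs were neighbours whose ranges did not overlap. For Saa3 and Saa1 the single gap between neighbours was again that between saline and 11 weeks, for Saa2 it was between saline and isotype lungs, for Gc between saline and 11 weeks, and for Orm1 between 11 and 19 weeks. For Hp, Cp and Fgg all neighbouring groups overlapped.

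Some genes that act upstream of the acute phase response rose in HDM lungs. Of 20 tested genes of the IL-6 family, its signalling and other inducers, 7 rose and none fell at 11 weeks relative to saline, beside 8.65% of all genes higher and 6.74% lower, with a median log2 fold change of 1.01, where the median of all genes was 0.003. Il6 averaged 4.86 ± 2.11 CPM at 11 weeks (n = 6) and 0.215 ± 0.150 CPM in saline lungs (SD, n = 5), a log2 fold change of 4.40 (adjusted p = 5.71e-06). Osm, a cytokine of the same family, rose by 3.07 (adjusted p = 7.1e-08), and Socs3, a feedback inhibitor of STAT3 signalling, by 1.89 (adjusted p = 0.00288). With the GC slope as a covariate 11 of the 20 rose, and without the steep libraries 13 rose and 2 fell. Shares of all genes in these settings are not given, so the added calls are not read as particular to this list. At 19 weeks 10 rose and 2 fell, beside 19.2% of all genes higher and 15.6% lower, with Cebpb (2.60, adjusted p = 0.000641), Cebpd (3.25, adjusted p = 0.00119) and Stat3 (0.73, adjusted p = 0.00342) among the risers, and Il6ra (-0.55, adjusted p = 0.0208) and Il22ra1 (-0.80, adjusted p = 0.0363) the ones that fell.

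Other acute phase genes mostly rose. Of 23 tested, 14 rose and none fell at 11 weeks and the same numbers at 19 weeks, with medians of 1.71 and 1.32 on the log2 scale. The share of all genes that were higher was 8.65% at 11 weeks and 19.2% at 19 weeks. Lcn2, an iron-siderophore binding protein, averaged 997 ± 197 CPM at 11 weeks and 67.3 ± 20.1 CPM in saline lungs (log2 fold change 3.89, adjusted p = 2.72e-13). Itih4, an inter-alpha-trypsin inhibitor heavy chain, rose by 3.39 (adjusted p = 2.7e-07), and Fgl1, a fibrinogen-like protein, by 3.64 (adjusted p = 2.61e-06). Genes named negative acute phase genes, for their fall in liver, did not move as one: of 5 tested, Rbp4 (3.86, adjusted p = 1.09e-06), Trf (1.39, adjusted p = 0.0284) and Ahsg (2.35, adjusted p = 2.14e-07) rose at 11 weeks, and Alb fell (-2.17, adjusted p = 0.0361).

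The remaining lists are set against the same shares of all genes, 8.65% higher and 6.74% lower at 11 weeks and 19.2% and 15.6% at 19 weeks. In the coagulation and fibrinolysis list, 7 of 20 rose and 1 fell at 11 weeks. The clotting factors F10 (2.96, adjusted p = 3.03e-07) and F7 (2.27, adjusted p = 4.38e-06) rose, while thrombomodulin, Thbd, fell (-1.33, adjusted p = 0.00482). At 19 weeks 7 rose and 4 fell, with Tfpi, an inhibitor of the tissue factor pathway, among those that fell (-1.01, adjusted p = 0.00115), and the 4 that fell were near the share of all genes. Among 18 receptors and scavengers, 3 rose and 1 fell at 11 weeks. Heme oxygenase, Hmox1, rose by 2.16 (adjusted p = 2.47e-07), the integrin chain Itgb2 by 1.53 (adjusted p = 0.000519) and the vitamin D receptor Vdr by 0.82 (adjusted p = 0.00644), and the formyl peptide receptor Fpr1 fell (-1.73, adjusted p = 0.032). In the iron and copper list 5 of 13 rose and none fell, among them Fth1 (1.59, adjusted p = 0.00235) and Ftl1 (1.86, adjusted p = 0.00442), the ferritin chains.

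With both antibodies relative to isotype antibody, list counts are set against 12.6% of all genes higher and 6.32% lower. Of the 23 other acute phase genes 5 rose and 4 fell, with the pantetheinase Vnn1 (2.33, adjusted p = 0.00507) and Lcn2 (0.68, adjusted p = 0.0355) higher, and Itih3 (-2.08, adjusted p = 0.00555), complement C3 (-1.54, adjusted p = 0.0167) and Serpina3n (-1.40, adjusted p = 0.0227) lower. Of the IL-6 family list 2 rose (Cebpb and Cebpd) and 2 fell (Il11 and Il1r1), and Il6 itself had a difference of -1.14 (adjusted p = 0.116). Of the coagulation list 2 rose and 7 fell, including Plau (-1.42, adjusted p = 0.0232), F13a1 (-1.29, adjusted p = 0.0151), which encodes the subunit that cross-links fibrin, and F10 (-1.27, adjusted p = 0.0192). Of 18 receptors 2 rose and 4 fell, among them the integrin chains that bind fibrinogen, Itgam (-1.56, adjusted p = 0.0171) and Itgb3 (-1.17, adjusted p = 0.0104), and Cd163, the receptor for haptoglobin with hemoglobin (-1.62, adjusted p = 0.0259). In the iron list 1 of 13 rose and 2 fell, with the iron exporter Slc40a1 lower (-1.62, adjusted p = 0.00193). The numbers that rose in the IL-6 family (2 of 20), coagulation (2 of 20), receptor (2 of 18) and iron (1 of 13) lists were near the share of all genes. The medians were -0.40 for the IL-6 family, 0.09 for other acute phase genes, -0.52 for coagulation and -0.38 for receptors, where the median of all genes was 0.04.

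These counts for both antibodies were smaller without the steep libraries, when 2 of the 5 treated lungs remain. Shares of all genes called in that setting, or with the GC slope as a covariate, are not given. Then 3 of the other acute phase genes were called (Lcn2, Orm2 and Vnn1, all higher), 1 of the negative acute phase genes (Rbp4, lower), 0 of the coagulation genes in edgeR (with 10 at an unadjusted p under 0.05), 2 of the receptors (Hmox1 and Itgb3, both lower) and 1 of the iron genes (Slc40a1, lower). In the IL-6 family list none of the 4 named genes was called without the steep libraries, with log2 fold changes of 0.30 for Cebpb (adjusted p = 0.744), 0.28 for Cebpd (adjusted p = 0.818), -1.44 for Il11 (adjusted p = 0.195) and -0.66 for Il1r1 (adjusted p = 0.162), and 2 other genes of the list were higher. With the GC slope as a covariate Cebpb (0.64, adjusted p = 0.109) and Cebpd (0.67, adjusted p = 0.282) lost their calls, while Il11 (-2.22, adjusted p = 0.0126) and Il1r1 (-1.28, adjusted p = 0.00247) were lower. With all libraries kept and GC slope entered as a covariate, 7 coagulation genes were lower.

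Across the 43 lungs Fga and Fgg followed each other closely, with a correlation of log2 CPM of 0.954, and of 0.858 after the group means were removed. Saa1 and Saa2 had 0.835 and 0.734, with the shared sequence noted above, and Saa3 and Fga 0.821 and 0.537. Hp and Cp ran slightly opposite, at -0.236 and -0.364. These lungs share tissue and processing, and the values are descriptions. Hp was the gene most tied to the GC slope, with a correlation of 0.818, against 0.62 for Saa1, 0.588 for Orm1, 0.586 for Saa3, 0.374 for Fgg, 0.327 for Fga and -0.406 for Cp. Within groups the correlation with GC slope was 0.796 for Hp, -0.629 for Cp, 0.594 for Saa3, 0.518 for Saa1, 0.355 for Orm1, 0.317 for Saa2, 0.095 for Fgg, 0.029 for Gc and -0.021 for Fga.

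**Figure D4:**
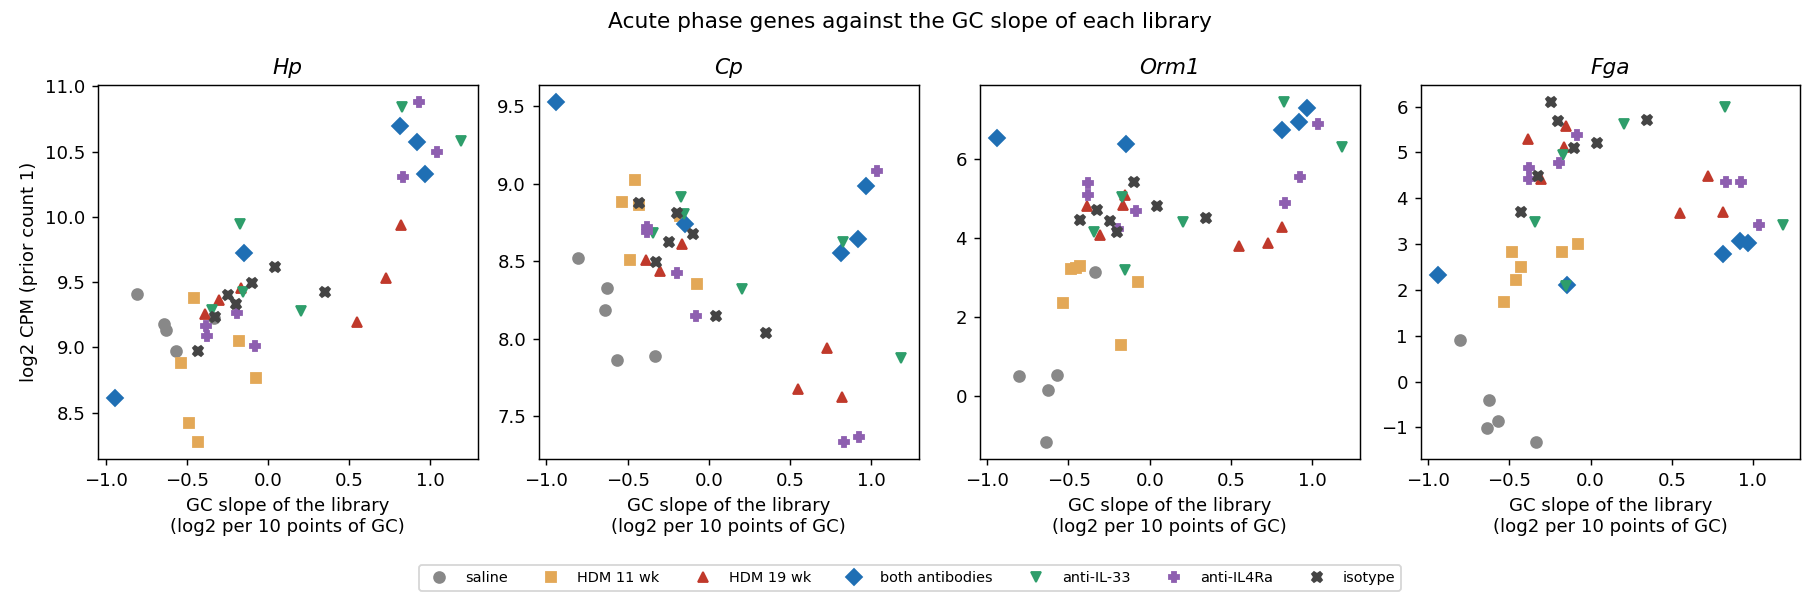
Log2 CPM (prior count of 1) of Hp, Cp, Orm1 and Fga against the GC slope of each library, in log2 units per 10 percentage points of transcript GC, with one symbol per mouse by group. Hp rises with the slope (correlation 0.818 over 43 lungs). The 5 lungs given both antibodies have more Orm1 and less Fga than the isotype lungs at both low and high slopes. Among these 5, Orm1 and Fga are both highest in replicates 1, 5 and 8, the 3 with steep slopes.

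The genes whose log2 level most resembled each acute phase gene over the 43 lungs were, for Fga, AU022793 (correlation 0.874), Csf2rb (0.869) and Megf11 (0.867), and for Fgg, AU022793 (0.825), Inhba (0.796) and Ccl3 (0.792). For Saa3 they were Cstb (0.935), Fgl1 (0.929) and P2ry2 (0.928), and for Saa1 Maff (0.857), Bcl2a1b (0.845) and Clec4d (0.834). Orm1 was nearest to its own copy Orm2 (0.941), followed by Tnfsf13 (0.902) and S100a1 (0.898). Hp was nearest to Lamc3 (0.888), Cp to Lamp3 (0.851) and Gc to Shc2 (0.782). These are descriptions over libraries that share groups and a GC slope.

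Since most of these proteins are known from liver, hepatocyte markers were examined in the same libraries. Of 14 markers, Cyp3a11 had 0 counts in all 43 lungs, Apoa1 and Ttr had 25 counts each, and Alb had a median of 0.159 CPM. The summed level ran from 12.4 to 99.3 CPM in saline lungs, from 5.83 to 9.83 at 11 weeks of HDM and from 5.15 to 21.1 at 19 weeks. It was 10.1 to 13.3 with both antibodies, 7.44 to 11.1 with anti-IL-33, 6.31 to 11.1 with anti-IL-4Rα and 5.45 to 8.87 with isotype antibody. Lung markers (Sftpc, Nkx2-1, Sftpa1 and Ager) summed to at least 9355 CPM in every library. Of the hepatocyte list, Cyp2e1 had the most counts, 6046, and reached 90.9 CPM in its highest lung, and Ahsg, with a median of 3.75 CPM, rose with HDM (2.35 at 11 weeks and 2.47 at 19 weeks on the log2 scale). Macrophage markers, a list of 6 with none at 0 counts in any group, moved with HDM, summing to 99.0 to 264 CPM in saline lungs, 1006 to 3213 CPM at 11 weeks and 1477 to 5023 CPM at 19 weeks. They summed to 1378 to 1865 CPM with both antibodies and 1099 to 5919 CPM with isotype antibody. Lists for other cell types moved too. Goblet cell markers summed to 13.9 to 57.0 CPM in saline lungs, 193 to 1049.6 CPM at 11 weeks of HDM and 119.7 to 801 CPM at 19 weeks. Club cell markers summed to 11227 to 20033 CPM in saline lungs, 2924 to 7537 CPM at 11 weeks and 2916 to 5771 CPM at 19 weeks, and to 5206 to 11634 CPM with both antibodies, against 1752 to 6238 CPM with isotype antibody. Platelet markers summed to 37.9 to 74.1 CPM in saline lungs, 11.9 to 22.6 CPM at 11 weeks and 8.37 to 21.0 CPM at 19 weeks, and to 15.5 to 162 CPM with both antibodies, against 7.87 to 15.5 CPM with isotype antibody. The part of these cell types in the results above was not tested.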

How the data were processed

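Whole lung RNA was purified from TRIzol, and strand-specific mRNA libraries were made from 500 ng with 12 PCR cycles and read as single 33-base reads, per the labels' protocols. The authors deposited estimated counts (expected counts) per gene, of which 76.79% of the values above 0 were whole. The build was mm10, per the submitters' processing notes, and which aligner, counter and annotation were used is not given in the sources used here. Expected counts were rounded and tested with edgeR 4.0.16 (R 4.3.3): TMM scaling, filterByExpr by group (15979 of 24475 genes), 1 quasi-likelihood fit over all 43 libraries, Benjamini-Hochberg adjustment. The fit was tested on simulated counts. Standard errors were derived from the quasi-likelihood F. Alternatives were DESeq2 1.42.0, limma 3.58.1 (voom with sample weights), other filters and scalings, the GC slope as a covariate, and omission of libraries. Tables and plots used Python 3.11.15, pandas 2.3.3 and matplotlib 3.10.9. The replicate numbers of the labels were not used as a pairing in the main fit. The 10 genes, the gene lists and the tests were chosen with earlier results of these data known. The text names all 10 genes. Genes of each list are named as examples and are not always those with the largest changes. Up to 3 of the most correlated genes are named, with none for Saa2 and Fgb. RefSeq promoter windows were matched by gene identifier for 8 of the 10 genes, with none for Orm1 and Hp.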

Additional observations from a re-analysis of the deposited data

Results flagged for a closer look

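In 9 of 62 checks of the highest and lowest lung in a group, on the CPM scale, 1 lung stood far from the others by Dixon's criterion, and chance marks about 1 in 20 groups. On the log2 scale 0 lungs did. All 9 were the highest of their group.

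Among the amyloid genes, Saa1 stood apart at 1.9121 CPM in replicate 9 at 19 weeks of HDM and at 11.352 CPM in replicate 4 of the anti-IL-33 group, and Saa3 at 2834.6 CPM in that same anti-IL-33 lung. Fgg was also far above its group in this lung, at 85.71 CPM, and the lung's summed neutrophil markers were 1820.7 CPM.

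Orm1 stood apart at 117.71 CPM in replicate 2 of the anti-IL-4Rα group, at 42.773 CPM in replicate 6 of the isotype group and at 8.671 CPM in replicate 3 of the saline group, the lung with the squamous epithelium markers. Fga stood apart at 1.8243 CPM in saline replicate 1, and Gc at 20.474 CPM in replicate 6 at 19 weeks of HDM.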

How the results depend on the processing

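No called gene changed direction under any alternative run. All 24 calls among the 9 genes and their comparisons were kept under DESeq2, DESeq2 size factors, no filter on low counts, voom and the GC slope covariate, as were the 21 that could be compared under a stricter filter and the 20 with only the groups compared. Without the steep libraries 22 of 24 were kept. Same-numbered replicates had a median correlation of -0.0118 over 88 pairs (from -0.6958 to 0.6475), and differently numbered ones had a median of 0.0078. These medians showed no pairing by number, but with so wide a range they cannot exclude a shared cage, litter or day. With the replicate block 4 of 24 calls were lost: Fgg at 11 weeks relative to saline (1.585, adjusted p = 0.0532), Fga (2.19, adjusted p = 0.0834) and Gc (2.777, adjusted p = 0.0575) at 19 relative to 11 weeks, where 0 calls were left in edgeR (5 at an unadjusted p under 0.05), and Fgg with both antibodies relative to isotype (-1.642, adjusted p = 0.0575).

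The number of genes called was 8 in voom at 11 weeks relative to saline (5 in edgeR). At 19 relative to 11 weeks it was 3 in DESeq2 and 5 in voom (2 in edgeR). For isotype relative to saline it was 8 in voom and 8 with the GC covariate (7 in edgeR). With anti-IL-33 relative to isotype it was 2 in voom. With both antibodies relative to isotype it was 1 without the steep libraries (3 with them). With both relative to anti-IL-33 it was 1 in DESeq2 and 2 in voom. With both relative to anti-IL-4Rα it was 1 in DESeq2, 3 in voom and 1 with the GC covariate. For departure from the sum of the single antibodies it was 2 in voom. The share of all genes called under each of these runs is not given, and the cause of these differences was not tested.

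Leaving out each library in turn gave 4 to 6 calls at 11 weeks and 6 to 7 at 19 weeks relative to saline, 0 to 2 at 19 relative to 11 weeks, 6 to 7 for isotype relative to saline, 1 to 4 for both antibodies relative to isotype, and 0 to 1 for both relative to anti-IL-4Rα, the 1 without anti-IL-4Rα replicate 2. The other comparisons stayed at 0 to 0.

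CPM on total counts, without TMM, gave saline means of 0.143 for Saa1, 750.3 for Hp and 372 for Cp, and 509.99 for Cp at 11 weeks, each outside 1 SD of the scaled mean.

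Counts of called list genes were recomputed with settings chosen after seeing the data. Shares of all genes called in these settings are not given, so changes in the counts are descriptions only. At 11 weeks relative to saline, the IL-6 family had 11 with the GC covariate and 15 without the steep libraries (7 in edgeR with neither), receptors 7 and 8 (4), and iron genes 8 without the steep libraries (5). For both antibodies relative to isotype, the IL-6 family had 2 with the GC covariate (both lower) and 2 without the steep libraries (both higher, and neither of them among the 4 called with all libraries), and without the steep libraries other acute phase genes had 3 (9), negative acute phase genes 1 (2), coagulation genes 0 (9), receptors 2 (6) and iron genes 1 (3).

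The limits are depth for Saa1, Saa2, Gc and Fgb, which had few counts a library, the shared sequence of Saa1 with Saa2 and of Orm1 with Orm2, and the 2 lungs that remain in the combination group once steep libraries are left out.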
